A study of Mus musculus with 50 samples.

Results

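The transcripts described here encode the proteasome, the enzymes that load proteins with ubiquitin for it, and the ubiquitin-specific proteases that take ubiquitin off again, in the testis and spinal cord of wobbler mice. Members were all probes whose gene symbol in the array annotation starts with Psma, Psmb, Psmc, Psmd, Psme, Ube2 or Usp followed by a digit or letter code, without the immunoproteasome genes Psmb8, Psmb9 and Psmb10. This gave 128 of the 20355 probes of the array, for 87 genes: 39 probes for 33 proteasome genes, 33 probes for 21 Ube2 genes, 51 probes for 31 Usp genes, and 5 probes for Psmc3ip and Psme3ip1. The proteins of the last pair bind proteasome proteins but are no subunits, and they were counted apart. The assembly chaperones Psmd5, Psmd9 and Psmd10 are absent from the finished proteasome too, but were kept among the proteasome genes. The rule itself uses gene names and no measured value.

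Wobbler mice are homozygous (wr/wr) for the recessive wobbler allele of Vps54, which encodes part of a vesicle tether at the Golgi, in all their cells; they lose motor neurons, and the males have defective sperm heads. On 50 2-colour arrays, RNA of wr/wr mice was set against RNA of wild-type (wt) mice of the same organ. The groups compared were the testes of 10 wr/wr mice, each on 4 arrays, and 3 wr/wr spinal cord RNAs, namely pool1 and pool2 of 4 mice each and the single cord of mouse 5995, all drawn from the same mice as the testes. Each cord pool was on 4 arrays, but the cord of mouse 5995 on 1 array in each dye orientation, and the 3 RNAs counted equally. The reference of a tissue was 1 wt pool. The labels list 10 mice for each pool, while the labelling protocol speaks of 6 control animals, and this was not settled. No source used here gives ages. Values are log2 ratios of wr/wr over wt after each array's median was set to 0, averaged over both dye orientations of an RNA, and errors are SDs over RNAs. That the ratios are wr/wr over wt is likely, judged by which channel the labels list first, but is not stated, and the opposite reading would turn every sign below. A probe was called when limma's test of the mean ratio against 0 gave a Benjamini-Hochberg adjusted p under 0.05 over all probes tested in that tissue. With 1 wt pool for each tissue, this p leaves out the spread among wt mice.

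The proteasome is a barrel-shaped protease that degrades ubiquitin-tagged proteins. Its core particle is built of rings of alpha (Psma) and beta (Psmb) subunits, of which Psmb5, Psmb6 and Psmb7 carry the catalytic sites. Its regulatory particle has a base with a ring of ATPases (Psmc), which unfold the substrate, and a lid and base of further subunits (Psmd), which bind ubiquitin and remove it. The Psme proteins are alternative caps. Ubiquitin itself is activated by an E1 enzyme, passed to a conjugating E2 enzyme (mostly Ube2 genes) and attached by an E3 ligase, and deubiquitinases such as the Usp family reverse the attachment. In the testis this system removes histones and cytoplasm as spermatids mature, and in motor neurons it clears misfolded proteins.

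Each array held a value for 18338 to 20189 probes. The SD over RNAs of a probe had a median of 0.173 in testis and 0.264 in cord. Arrays of other RNAs in the same dye correlated at a median Spearman rho of 0.196 in testis and 0.239 in cord over probes, against 0.109 and -0.079 for arrays of one RNA in opposite dyes. Among the markers of the labelled tissues only ratios were measured, so their levels, and whether those cell types were present, could not be checked.

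In the testis, proteasome transcripts were higher in wr/wr mice across the core and the regulatory particle, by small amounts. Of 39 proteasome probes 18 rose and 0 fell (16 of 33 genes), a share of 46.2%, where 7.28% of all 20218 tested probes were called higher and 5.06% lower. The median ratio was 0.15 over proteasome probes, against -0.011 over all probes, and 35 of 39 were above 0. Called ratios ran from 0.12 (Psmd11, the lower of 2 probes) to 0.28 (Psma1), so the largest called difference from the wt pool was 1.21-fold. Of the 38 proteasome probes with a value in all 10 mice, 8 were above 0 in every mouse, against 3.44% of all probes. Because these are whole organs, less or more RNA per cell and fewer or more cells of a type cannot be told apart.

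**Figure D1:**
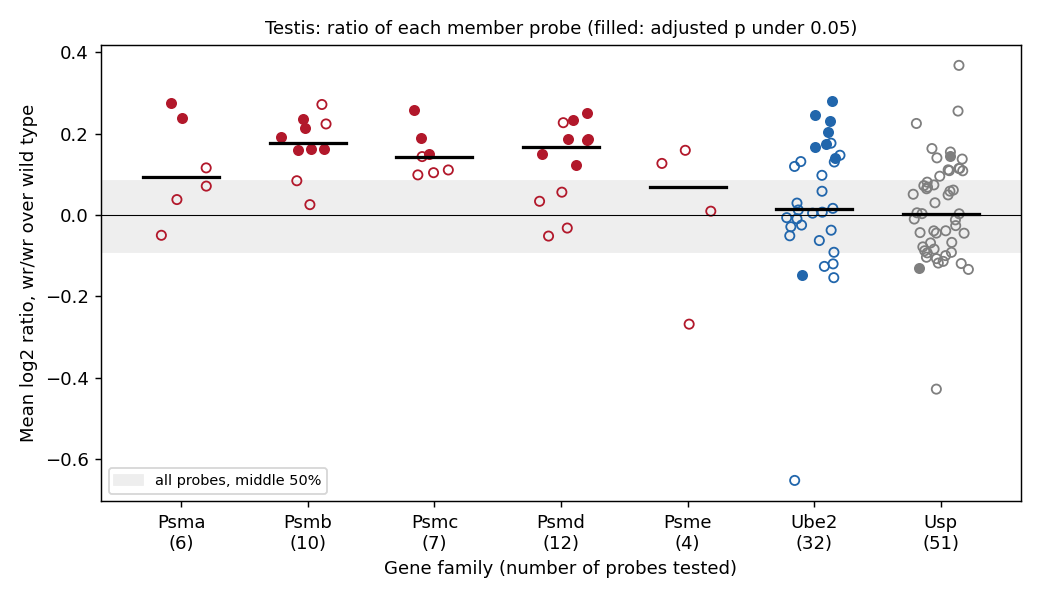
Mean log2 ratio of wr/wr over wild type in testis (vertical axis) of each member probe, by gene family (horizontal axis, number of probes tested in brackets). Filled points have a limma adjusted p under 0.05, black bars are family medians, the grey band holds the middle 50% of all probes, and points are spread sideways only for visibility. The Psma, Psmb, Psmc and Psmd medians (0.094, 0.18, 0.14 and 0.17) lie above the band, and those of Ube2 and Usp near 0.

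The regulatory particle held 10 of the 18 called probes. Among the ATPases of its base, 3 of 7 Psmc probes rose and all 7 were above 0. Psmc3 was measured at 0.07 in the lowest mouse, 0.26 in the median and 0.58 in the highest, a mean of 0.26 ± 0.14 (SD, n = 10; 1.20-fold, limma adjusted p = 0.0128). It was above 0 in 10 of 10 mice and had the smallest p of all members. Psmc5 ran from 0.04 to 0.38 with a median of 0.17 and a mean of 0.19 ± 0.11 (limma adjusted p = 0.0181), also above 0 in every mouse. Its other probes were at 0.11 and 0.10 and were not called, so 1 of 3 Psmc5 probes carried the call. On arrays with wr/wr in Cy5 the called Psmc5 probe averaged 0 to 2 decimals (-0.0022) and in Cy3 0.38, so its mean rests on 1 dye orientation. Psmc4 rose by 0.15 ± 0.11 and was above 0 in 10 mice, but at 0.41 in Cy5 and -0.11 in Cy3. Psmc6 was at 0.14 and Psmc2 at 0.099 ± 0.59, neither called.

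Among the other subunits of the regulatory particle, 7 of 12 Psmd probes rose, for 6 of 10 genes. Psmd11, a lid subunit that ties the lid to the core, ran from 0.01 over a median of 0.24 to 0.41, with a mean of 0.23 ± 0.14 (limma adjusted p = 0.0174), and its other probe rose as well, by 0.12. All 10 mice were above 0 at the first probe. Psmd4, a receptor for ubiquitin chains, ran from -0.03 over 0.21 to 0.36 (mean 0.19 ± 0.11, limma adjusted p = 0.0181), with mouse 5997 alone below 0. Psmd2, the large scaffold of the base, ran from -0.09 over 0.26 to 0.46 (mean 0.25 ± 0.17, limma adjusted p = 0.0202), again with mouse 5997 alone below 0. Psmd6, a lid subunit, was above 0 in every mouse, from 0.06 to 0.40 (mean 0.19 ± 0.12). Psmd14, the lid's own deubiquitinase, rose by 0.18 ± 0.17, with 9 of 10 mice above 0, and the lid subunit Psmd13 by 0.15. Psmd7, the lid partner of Psmd14, was at 0.23 but missed the threshold (limma adjusted p = 0.0583). Of the Psmd members, those with means closest to 0 were Psmd5 (0.034 and -0.032 at its probes), Psmd10 (0.056) and Psmd9 (-0.051), all 3 of them known as assembly chaperones of the base that are absent from the finished proteasome. None of these 4 probes was called, and all are among the 12 Psmd probes counted.

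Promoters are shown for the 4 called proteasome genes of smallest p with an entry in the RefSeq promoter table (build GRCm38.p6). After them stand those of the pair of members called lower, Ube2c and Usp36, whose ratios each differed in sign between the dye orientations. The windows hold 250 bases before and 50 bases after the annotated start, 5′ to 3′ on the gene's strand, and capitals mark every match to the motifs TGACNNNGC (core of the antioxidant response element, which Nrf factors bind), CCAAT (the CCAAT box), GGGCGG (GC box), TGACGTCA (full cAMP response element) and CTTCCG (an ETS factor site) on either strand.
Psmd11, chr11:80428365-80428664, plus strand: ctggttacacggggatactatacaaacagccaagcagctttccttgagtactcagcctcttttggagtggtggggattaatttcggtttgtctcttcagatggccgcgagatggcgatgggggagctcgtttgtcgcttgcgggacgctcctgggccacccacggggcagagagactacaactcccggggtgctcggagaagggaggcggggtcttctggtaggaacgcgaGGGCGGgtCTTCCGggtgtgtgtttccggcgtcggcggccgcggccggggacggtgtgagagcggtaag
Psmd4, chr3:95042565-95042864, minus strand: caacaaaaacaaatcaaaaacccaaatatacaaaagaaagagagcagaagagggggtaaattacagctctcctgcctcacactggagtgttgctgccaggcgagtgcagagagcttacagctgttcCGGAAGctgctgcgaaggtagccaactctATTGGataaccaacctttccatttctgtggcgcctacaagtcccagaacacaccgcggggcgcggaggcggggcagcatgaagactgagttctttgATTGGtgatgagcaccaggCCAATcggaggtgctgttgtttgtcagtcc
Psmc5, chr11:106255935-106256234, plus strand: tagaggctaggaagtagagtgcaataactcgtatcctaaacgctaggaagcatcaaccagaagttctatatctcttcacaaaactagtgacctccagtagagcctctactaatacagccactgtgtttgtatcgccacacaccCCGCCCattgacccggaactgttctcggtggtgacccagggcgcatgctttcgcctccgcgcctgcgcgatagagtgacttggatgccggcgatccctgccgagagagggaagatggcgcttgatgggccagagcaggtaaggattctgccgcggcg
Psmd2, chr16:20651402-20651701, plus strand: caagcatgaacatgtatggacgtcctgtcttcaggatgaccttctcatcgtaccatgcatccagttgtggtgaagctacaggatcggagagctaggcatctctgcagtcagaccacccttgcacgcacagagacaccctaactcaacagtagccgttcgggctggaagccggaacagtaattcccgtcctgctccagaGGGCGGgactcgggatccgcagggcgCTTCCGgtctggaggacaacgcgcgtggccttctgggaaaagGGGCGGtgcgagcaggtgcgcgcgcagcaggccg
Ube2c, chr2:164769679-164769978, plus strand: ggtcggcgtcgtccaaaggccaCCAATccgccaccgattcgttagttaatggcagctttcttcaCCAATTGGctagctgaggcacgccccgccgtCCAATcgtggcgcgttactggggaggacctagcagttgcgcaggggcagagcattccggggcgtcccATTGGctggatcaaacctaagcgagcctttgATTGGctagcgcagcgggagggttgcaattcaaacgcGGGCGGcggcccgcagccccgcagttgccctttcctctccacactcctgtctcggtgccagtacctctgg
Usp36, chr11:118290195-118290494, minus strand: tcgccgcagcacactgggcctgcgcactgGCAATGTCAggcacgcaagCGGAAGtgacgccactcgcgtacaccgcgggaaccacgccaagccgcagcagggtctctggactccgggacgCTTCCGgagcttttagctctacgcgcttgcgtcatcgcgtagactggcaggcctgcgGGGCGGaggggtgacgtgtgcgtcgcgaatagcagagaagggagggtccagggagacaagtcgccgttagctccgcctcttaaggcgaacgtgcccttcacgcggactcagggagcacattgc

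The ETS letters CTTCCG stand in Psmd11 11 bases and in Psmd2 26 bases before the start, and in Psmd4 on the other strand. The window of Psmc5 holds a GC box as its single match. Ube2c carries 6 CCAAT matches, 3 on each strand, of which 1 pair overlaps in the letters CCAATTGG. Of the 31 windows of the 28 proteasome genes with an entry (of 33), 17 (54.8%) hold the ETS letters, against 16.9% of all 32851 promoter windows and 26.8% of the 10238 windows of genes with a probe tested in testis. The GC box is in 61.3% of proteasome windows, in 35.7% of all windows and in 58.0% of those of tested genes. The antioxidant core is in 16.1% of proteasome windows (12.4% of all), CCAAT in 35.5% (37.4% of all) and the full cAMP element in 0 of 31 (1.79% of all). Among the 13 called proteasome genes with a window, 9 (69.2%) hold the ETS letters and 2 (15.4%) the antioxidant core. The ETS letters are in 33.3% of 24 Ube2 windows and 37.5% of 24 Usp windows. These are matches of letters in a short window, and no factor was measured.

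In the core particle, 6 of 10 Psmb probes and 2 of 6 Psma probes rose. All 3 catalytic subunits were among them. Psmb5, the chymotrypsin-like subunit, ran from -0.10 over a median of 0.19 to 0.53 (mean 0.24 ± 0.21, 1.18-fold, limma adjusted p = 0.0347), with 1 mouse, 6065, below 0. Psmb6, the caspase-like subunit, ran from -0.02 over 0.18 to 0.37 (mean 0.19 ± 0.13, limma adjusted p = 0.0216), while its other probe was at 0.085 ± 0.075 and was not called. The called Psmb6 probe was at 0.39 in Cy5 and at -0.0088 in Cy3. Psmb7, the trypsin-like subunit, was above 0 in all 10 mice, from 0.0053 to 0.33 (mean 0.16 ± 0.11, limma adjusted p = 0.0242). The noncatalytic beta subunit Psmb2 rose by 0.21 ± 0.16, from 0.05 to 0.52 and above 0 in every mouse, and both probes of Psmb4 rose, each by 0.16. Psmb1 (0.27 ± 0.30) and Psmb3 (0.22 ± 0.27) had high means but a wide spread and were not called. Psmb11, the beta subunit of the thymus, was at 0.026 ± 0.64 with 5 of 10 mice above 0.

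Of the alpha subunits, which form the gate of the core, Psma1 had the highest mean, 0.28 ± 0.25, ranging from -0.03 over 0.26 to 0.67 (limma adjusted p = 0.0377). Psma4 ran from 0.01 over 0.24 to 0.54 (mean 0.24 ± 0.17, limma adjusted p = 0.0208) and was above 0 in all 10 mice, and Psma1 in 9 of them. Psma2 (0.12), Psma5 (0.071), Psma7 (0.038) and Psma6 (-0.050) were not called. The testis-specific alpha subunit Psma8 and the ATPase Psmc1 have no named probe on this array.

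Among the alternative caps, 0 of 4 Psme probes was called. Psme4, the activator that acts in histone removal in spermatids, was at 0.16 ± 0.19 with 7 of 10 mice above 0 (limma adjusted p = 0.0966). Psme3, the nuclear cap, was at 0.13 ± 0.18. The interferon-inducible caps were at -0.27 ± 0.64 for Psme1, with 3 of 10 mice above 0, and 0.0097 ± 0.27 for Psme2 over 9 mice. The immunoproteasome subunits Psmb8, Psmb9 and Psmb10 had 0 of 3 probes called and a median of -0.0058. Of the partners, Psmc3ip, a protein of meiotic recombination, rose by 0.18, and Psme3ip1, a binder of the nuclear cap, rose at 2 of its 4 probes (0.16 and 0.20) while the others were at -0.16 and -0.12 and were not called.

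**Figure D2:**
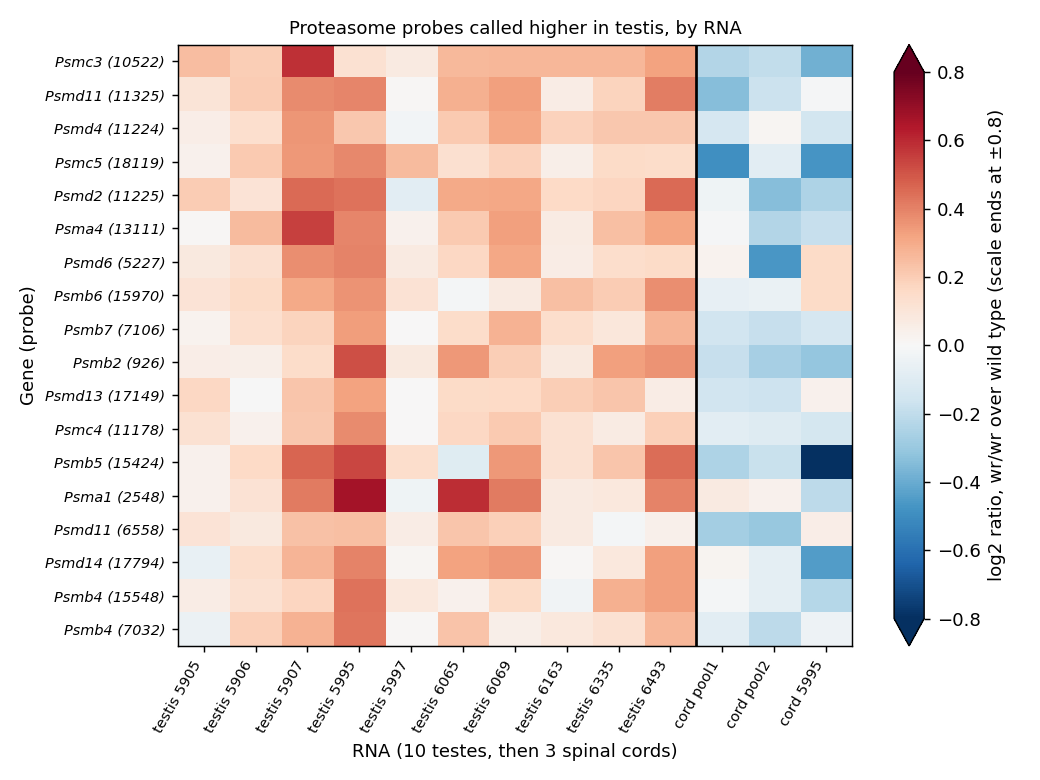
Log2 ratio of wr/wr over wild type (colour, red above 0, blue below 0, scale ends at 0.8 either way) of the 18 proteasome probes called higher in testis (rows, probe number in brackets) in each of 10 testis and 3 cord RNAs (columns, divided by the black line). The testis columns are mostly red, most deeply in mice 5907, 5995 and 6493 and least in 5905 and 5997, and the cord columns are mostly blue.

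The size of the proteasome ratios differed between mice. The median over proteasome probes was above 0 in 10 of 10 mice. It was highest in mouse 5995 (0.38), followed by 5907 (0.23), 6493 (0.22) and 6069 (0.20), and lowest in 5997 (0.012), 5905 (0.029) and 6163 (0.059). The median over all probes, which the centring of each array holds near 0, was between -0.015 and 0.016 in the same mice. By dye, the proteasome median was 0.17 where Cy5 held wr/wr, for which 10 of 10 mice were above 0, and 0.10 where Cy3 did, for which 8 of 10 were. Arrays of 1 dye alone gave 16 called proteasome probes in Cy5, 13 of them shared with the 18, and 4 in Cy3, 3 of them shared, while all probes called in these fits numbered 3406 and 1352. The count also rests on single mice. Without mouse 5907 it was 10, without 6069 8, without 6335 11 and without 6493 6, while the called share of all probes went from 12.3% to 6.45%, 5.16%, 6.37% and 4.22%. Leaving out the others one at a time gave 12 to 18, and the median ratio stayed between 0.13 and 0.18 whichever mouse was left out.

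**Figure D3:**
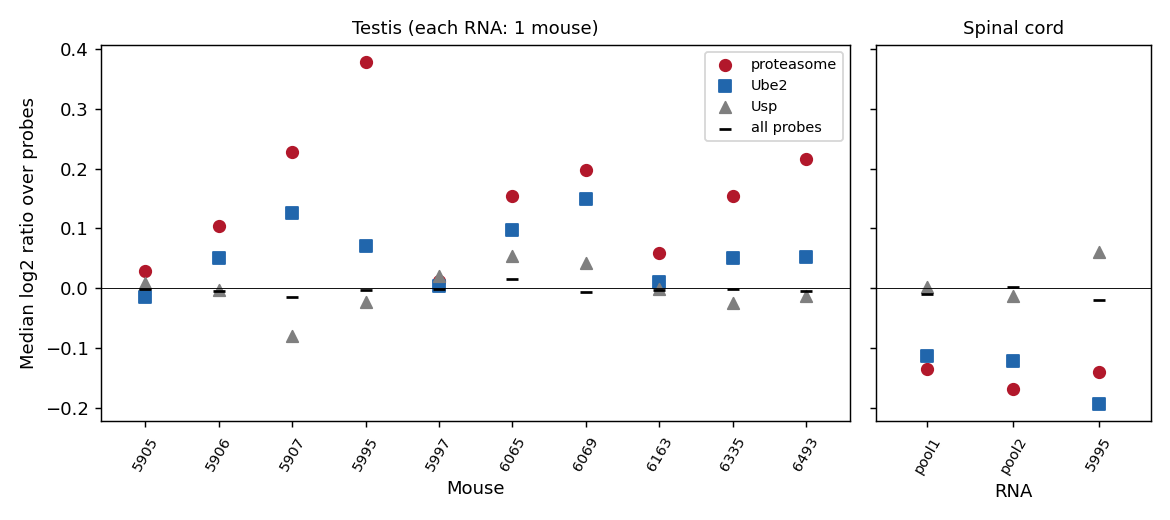
Median log2 ratio of wr/wr over wild type (vertical axis) over the proteasome (circles), Ube2 (squares), Usp (triangles) and all tested probes (dashes) in each testis (left) and cord RNA (right). The proteasome median lies between 0.012 and 0.38 in the testes and between -0.17 and -0.13 in the cords.

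**Figure D4:**
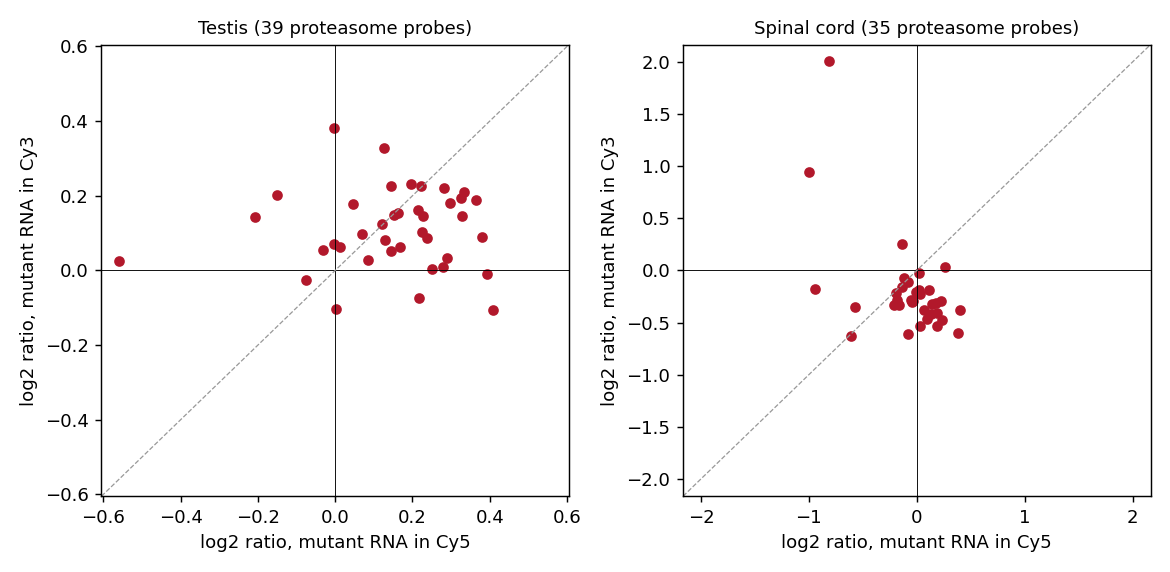
Mean log2 ratio of each proteasome probe on arrays with wr/wr in Cy5 (horizontal axis) against that in Cy3 (vertical axis), in testis (left, 39 probes) and spinal cord (right, 35 probes, wider axes); the dashed line marks equal values. In testis 32 probes are above 0 in Cy5 and 34 in Cy3, and in cord 17 and 4.

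Several markers of testis cell types changed in the same arrays. Of 10 Sertoli cell probes 5 rose and 0 fell (median 0.22, per-mouse medians from -0.031 to 0.44), and of 7 spermatocyte probes 3 rose and 1 fell (median 0.13, from 0.029 to 0.33). Of 8 Leydig cell probes 4 fell (median -0.21, from -0.42 to -0.029), and of 13 macrophage probes 5 fell (median -0.030). Round spermatid markers had 1 of 10 probes lower and elongating spermatid markers 0 of 18 called, with per-mouse medians from -0.48 to 0.33. Spermatogonial markers had 0 of 5 called. The part of these shifts in the proteasome ratios was not tested.

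Among the conjugating enzymes, fewer rose, and those that did were few genes. Of 32 Ube2 probes 7 rose (21.9%, against 7.28% of all probes) and 1 fell (5.06% of all), and the median was 0.015. Ube2b, an E2 that spermatogenesis requires, rose at each of its 3 probes. The first ran from 0.05 over a median of 0.18 to 0.38, a mean of 0.17 ± 0.10 (limma adjusted p = 0.0185), with 10 of 10 mice above 0. The others were at 0.20 ± 0.15 (limma adjusted p = 0.0241, 10 of 10 mice) and 0.23 ± 0.21 (limma adjusted p = 0.0418, 9 of 10). Its close relative Ube2a was at 0.013 and -0.037, neither called. Probes for such near-identical genes may share labelled cDNA, which was not tested.

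Ube2g2, an E2 of the endoplasmic reticulum that acts on misfolded proteins, ran from -0.02 over 0.20 to 0.64 (mean 0.25 ± 0.18, limma adjusted p = 0.0235), with 9 of 10 mice above 0. Ube2z, which takes ubiquitin from the E1 enzyme Uba6, rose at 1 of 3 probes. That probe ran from 0.03 over 0.20 to 0.74 (mean 0.28 ± 0.23, limma adjusted p = 0.0294) and was above 0 in every mouse, while the others were at -0.051 and -0.0090. Probes of Ube2z therefore disagreed. Ube2o, a large enzyme that joins E2 and E3 activity, rose by 0.17 ± 0.13, and Ube2d3, an E2 of many ligases, by 0.14 ± 0.12. Ube2c, the E2 of the anaphase-promoting complex, was the single one that fell. It ran from -0.36 over -0.14 to 0.0018, a mean of -0.15 ± 0.11 (limma adjusted p = 0.0315), with 9 of 10 mice below 0. Its ratio was 0.084 in Cy5 and -0.38 in Cy3, so its direction differed between the dye orientations. Ube2n, which makes the chains used in signalling and DNA repair, was at -0.12 ± 0.25 and was not called. The 4 probes of Ube2l3 ran from -0.65 to 0.13, none called, and the lowest of them held a value at the floor of the scale in mouse 5905. Ube2m, an E2 for NEDD8, has no named probe.

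The ratios of the ubiquitin-specific proteases centred on 0. Of 51 Usp probes 1 rose and 1 fell (1.96% each, below the 7.28% and 5.06% of all probes), 27 were above 0, and the median was 0.0037. Usp16, a histone deubiquitinase, ran from -0.02 over 0.14 to 0.37, a mean of 0.14 ± 0.11 (limma adjusted p = 0.0375), with 9 of 10 mice above 0. Its other probe was at 0.14 (limma adjusted p = 0.082). Usp36, a deubiquitinase of the nucleolus, ran from -0.28 over -0.12 to 0.01 (mean -0.13 ± 0.11, limma adjusted p = 0.0432), with 9 of 10 mice below 0, but at -0.32 in Cy5 and 0.063 in Cy3. Both calls were lost when any of mice 5906, 5907, 5995, 6069, 6335 and 6493 was left out. Usp8, a deubiquitinase of endosomes, had the highest mean of the family, 0.37 ± 0.54, with 1.77 in mouse 6065 and a median of 0.16, and was not called. Usp31 had the lowest, -0.43 ± 0.43 over 9 mice (limma adjusted p = 0.0581). Usp7, which stabilises Mdm2 and many nuclear proteins, had 4 probes from -0.088 to 0.11. Usp5, which takes free ubiquitin chains apart, was at 0.051, Usp1, a deubiquitinase of DNA repair, at 0.050, Usp9x at 0.11 and the testis-expressed Usp26 at 0.059. None of these was called. The proteasome-bound Usp14 and Usp2 have no named probe.

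Genes with several probes showed how far a ratio depends on the probe. Of 5 proteasome genes with more than 1 probe, 4 had all probes on the same side of 0, with a median range between probes of 0.085. For Ube2 this held for 3 of 7 genes and for Usp for 5 of 13.

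Other genes of the pathway were counted from fixed lists. Of 4 probes for E1 activating enzymes 3 rose (75%), for Uba6 (0.26 ± 0.19), the E1 partner of Ube2z, for Sae1 (0.27 ± 0.17), a part of the SUMO E1, and for Uba7 (0.21 ± 0.18), the E1 of ISG15. Nae1 (0.15) was not called. Only these 4 of the 18 genes on the E1 list had a tested probe, so the share covers a small part of the list. Of 13 probes for ubiquitin-like modifiers 2 rose (15.4%), for Nedd8 (0.25) and at 1 of 2 probes for Ubl5 (0.19, the other 0.17); none of the 13 is of a gene for ubiquitin itself. Of 29 probes for proteasome assembly and shuttling 3 rose (10.3%) and 1 fell (3.45%). The ATPase Vcp, which extracts ubiquitin-tagged proteins (0.26), and its cofactor Nploc4 (0.17) rose at their only probes. The shuttle Ubqln1 rose at 1 of 4 probes (0.25, the others 0.15, -0.051 and -0.044), and the chaperone Bag6 fell at 1 of 2 (by 0.26, the other at -0.12). Of 84 E3 ligase probes 8 rose (9.52%, near the 7.28% of all probes) and 0 fell. The called probes were of the cullin ligase genes Rbx1 (0.27 and 0.23, its other probe 0.14), Skp1 (0.18, the other 0.13) and Ddb1 (0.23), of Anapc5 (0.25), Anapc11 (0.17) and Cdc20 (0.20) of the anaphase-promoting complex, and of Cbl (0.25 at 1 of 4 probes, the others 0.44, 0.089 and -0.022). Of 40 probes for other deubiquitinases 1 rose (2.5%), for Cops5 of the signalosome (0.21 at 1 of 3 probes, the others 0.074 and 0.0036).

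In the spinal cord, 0 of 112 member probes was called, as was 0.0% of all 17055 tested probes (smallest adjusted p of limma 0.542). At an unadjusted p under 0.05 stood 1 of 35 proteasome probes, 4 of 30 Ube2 probes and 1 of 43 Usp probes, against 1476 of all probes (8.65%). The test rests on 3 RNAs. The values themselves lay mostly below 0. Of 35 proteasome probes 30 were below 0, with a median of -0.12 (all probes -0.0032), and 18 (51.4%) were below 0 in all 3 RNAs, against 20.7% of all probes. The per-RNA medians were -0.13 in pool1, -0.17 in pool2 and -0.14 in mouse 5995. These ratios lay in 1 dye orientation: the proteasome median was -0.0087 where Cy5 held wr/wr and -0.30 where Cy3 did. The median of all probes, which centring holds near 0, was 0.0018 and 0.0050. The part of the dye in the cord ratios was not tested.

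A probe of Psmd5, the assembly chaperone, had the lowest mean proteasome ratio of the cord, at -0.56, -0.49 and -0.80 in pool1, pool2 and mouse 5995 (mean -0.62 ± 0.16). The other Psmd5 probe was at -0.14, -0.45 and -0.80 (mean -0.46). The former is the 1 proteasome probe with an unadjusted p under 0.05, and it was as low in Cy5 (-0.61) as in Cy3 (-0.63). Psmb5 was at -0.24, -0.18 and -1.26, with the cord of mouse 5995 far below both pools. Psmc5 was at -0.49, -0.09 and -0.47, and Psmc3 at -0.24, -0.20 and -0.39. Psme2, the interferon-inducible cap, was at -0.25 and -0.17 in the pools and at 2.21 in mouse 5995. That cord was on 1 array in each dye orientation. Over the 2 tested Psme probes, its median was -0.40 in Cy5 and 2.70 in Cy3. On Cy5 arrays alone, testis minus cord of Psme2 turned from -0.59 to 0.78. Psme1 and Psme4 had values in too few cord RNAs to be tested.

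Of 30 Ube2 probes 21 were below 0 in cord, 14 of them in all 3 RNAs, with a median of -0.15 (Cy5 -0.087, Cy3 -0.18). Ube2b was at -0.26, -0.42 and -0.48 at the probe with the lowest p, and at -0.01, -0.10 and -0.18 and at -0.13, -1.21 and 0.69 at the others. Ube2ql1 stood at -0.24, -0.42 and -0.48 and Ube2h at -0.36, -0.26 and -0.32, in pool1, pool2 and mouse 5995. Ube2u was on the other side, at 0.35, 0.54 and 0.47, but at -0.31 in Cy5 and 1.22 in Cy3. The Usp probes centred on 0.040, with 23 of 43 above 0. Usp15 had the lowest p of them and was at 0.54, 0.27 and 0.69 at 1 probe, while its other tested probes averaged 0.018 and -0.0054. Usp53 averaged 0.45 and 0.40 at its probes. None of these was called.

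Cell type markers shifted in the same cords. All 10 microglia probes were above 0 (median 0.65, from 0.58 to 0.75 per RNA), all 7 oligodendrocyte probes (median -0.55) and all 4 motor neuron probes (median -0.61) were below 0, and 10 of 14 astrocyte probes were above 0 (median 0.26). Their part in the ratios of the members was not tested.

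Side by side, the proteasome ratios lay on opposite sides of 0 in the 2 tissues for many members. Whether they differ depends on how the spread is estimated and on the dye orientation. The median of testis minus cord was 0.28 over 35 proteasome probes, 0.16 over 30 Ube2 probes and -0.036 over 43 Usp probes. The fit with 1 spread for both tissues called 16 of 35 proteasome probes, all with the testis ratio above the cord ratio (10.8% of all 17005 probes), and 9 Ube2 probes above and 2 below, and 0 Usp probes above and 6 below (10.4% of all). This spread is shared by 10 testes and 3 cords, although the SD over RNAs had a median over all probes of 0.173 in testis and 0.264 in cord. On simulated data the fit with 1 spread called many probes that held no difference. Run on arrays with wr/wr in Cy5 alone, it called 3 of 37 proteasome probes (8.86% of all probes), 1 of them among the 16. On those with wr/wr in Cy3 it called 18 (24.9% of all probes), 13 of them among the 16. The proteasome median of testis minus cord was 0.19 in Cy5 and 0.40 in Cy3. With a spread of its own for each tissue, 0 of 112 members was called (0.123% of all probes). In that fit 11 of 35 proteasome probes (31.4%) had an unadjusted p under 0.05, all with the testis ratio higher. Of all probes, 16.9% had one in either direction. The smallest adjusted p of the proteasome probes was 0.224, by a t test on limma's errors. Pairing each cord RNA with the testes of its mice also gave 0 calls. That fit rests on 3 differences and called 0 of all 16983 probes, so it cannot tell members from other probes. Array weights gave 0 member calls as well, against 0.953% of all probes. A tissue difference of these transcripts was thus not established by the fit that gives each tissue its own spread. Of all probes with a value in all 10 mice, 3.44% were above 0 in every testis. Of all probes tested in cord, 20.7% were below 0 in all 3 RNAs. The share with both was not counted, and the named probes were chosen in part for a small p in testis. At 9 of the named probes every testis ratio, averaged over both dyes, was above 0 and every cord ratio below 0. Not all of them kept this sign within 1 dye. The testis mean of the Psmc5 probe was -0.0022 in Cy5, and that of Psmc4 was below 0 in Cy3. The 9 probes were those of Psmc3 (0.07 to 0.58 in 10 testes, -0.39 to -0.20 in 3 cords), Psmb2 (0.05 to 0.52, and -0.31 to -0.18), Psma4, Psmb7, Psmc4, 1 probe each of Psmc5, Psmd11 and Ube2b, and the Ube2z probe that rose in testis (0.03 to 0.74, and -0.35 to -0.22).

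**Figure D5:**
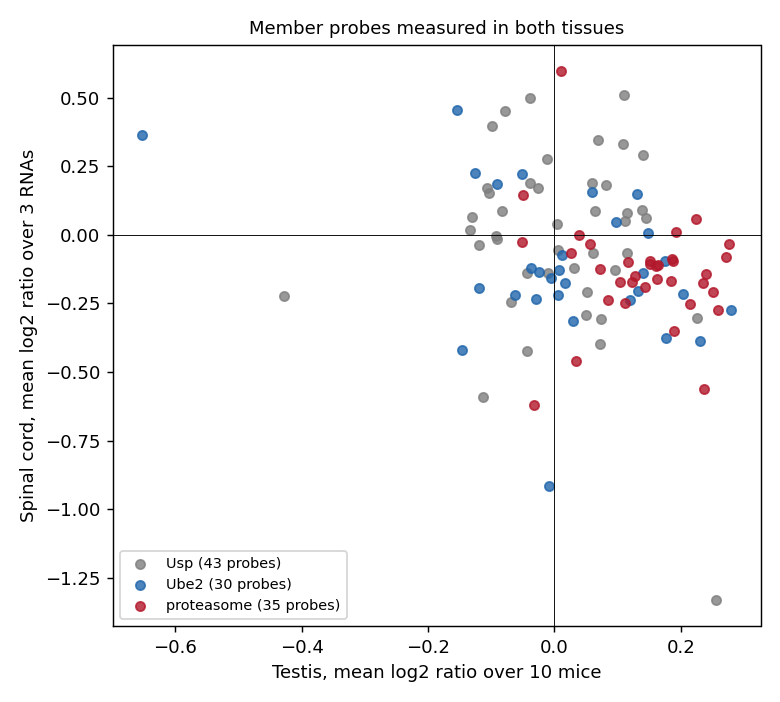
Mean log2 ratio of wr/wr over wild type in testis (horizontal axis, 10 mice) against spinal cord (vertical axis, 3 RNAs, wider scale) for the 35 proteasome, 30 Ube2 and 43 Usp probes tested in both. Proteasome probes crowd at the lower right, with a median of 0.28 for testis minus cord, and Usp probes scatter around 0 in both.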

How the data were processed

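The authors deposited 1 log2 ratio for each probe and array; no source used here gives the normalization or filters that made them, and no sign was turned. Gene symbols came from the platform annotation (14030 of 20355 probes with 1 symbol, 5 with several, 6320 with none). Each of 50 arrays was centred on its median, arrays of an RNA were averaged within and then over Cy5 and Cy3, and the mean of each probe was compared with 0 by limma (version 3.58.1; R 4.3.3), on probes with both dyes in at least 8 of 10 testes (20218 probes, 127 members; Ube2d2a missed this) or in all 3 cord RNAs (17055 probes, 112 members). Where a mouse lacked a value, n is given. Testis minus cord was fitted over 13 RNAs with 1 spread. The fit with a spread of its own for each tissue (a t test on limma's errors, Satterthwaite degrees of freedom) was added later. The data, and a test on simulated data, had been seen by then. In that simulated test the fit with 1 spread called many probes that held no difference, a number not reported here. The simulated noise was normal, with a dye offset that averaging over both dyes removes. Dye effects that such averaging leaves were not modelled. The cord RNAs and testes share animals, but their deviations from the tissue means correlated between -0.0087 and 0.0084. No arrays held identical values, and no pair of one dye correlated below -0.3. Replicates are separate mice or pools.

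Genes were named by a rule: per group, up to 10 called testis probes of smallest p, up to 3 probes per direction in cord and in the difference, the highest and lowest of each family, and a list of well-known members; a few others are named from counts after their values were seen. The members and lists were chosen with earlier results of these data known. Alternatives covered centring, each dye alone, the reading of the ratio, floored values, probes averaged by gene, value minimums, array weights, pairing and left-out RNAs.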

Additional observations from a re-analysis of the deposited data

Results flagged for a closer look

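Sets of 10 testis ratios were checked for the named member probes with a value in every mouse and for the proteasome, Ube2 and Usp medians. Among these 50 sets, 5 held 1 mouse far from the nearest of the others. Chance gives this flag to about 1 set in 20. Psmc3 was at 0.585 in mouse 5907, its highest value. Psmc2 was at -1.27 in mouse 5905, and Ube2l3 at -4.07 at 1 of its 4 probes in the same mouse, where a value at the floor of the scale enters the mean. Usp8 was at 1.77 and 1 Usp7 probe at -0.624, both in mouse 6065.

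For 9 named probes every testis ratio, averaged over both dyes, lay above 0 and every cord ratio below 0. Within 1 dye, the testis mean of the Psmc5 probe was below 0 in Cy5 and that of Psmc4 in Cy3. Testis minus cord was 0.533 for Psmc3, 0.408 for Psmd11, 0.538 for Psmc5, 0.383 for Psma4, 0.321 for Psmb7, 0.47 for Psmb2, 0.259 for Psmc4, 0.271 for 1 Ube2b probe and 0.553 for 1 Ube2z probe. The fit with 1 spread for both tissues called 34 of 112 members, these 9 among them. That fit also called many simulated probes that held no difference. With a spread of its own for each tissue, the t test on limma's errors called 0 of the 112 (22 with an unadjusted p under 0.05, smallest adjusted p 0.211). The 9 probes were picked out by their signs after the data had been seen, and the share of all probes with such signs was not counted.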

How the results depend on the processing

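In testis the proteasome median was above 0 under every alternative run, from 0.030 (ratio read as Cy5 over Cy3) to 0.19. The Cy5 over Cy3 reading turns the sign of the Cy3 arrays. If the ratios are wr/wr over wt, its value shows a difference between dyes and cannot show that the direction held. The reading as wt over wr/wr, which would turn the sign, was not run. The called proteasome probes, 18 as reported, were 4 with Cy3 arrays alone, 2 with the ratio read as Cy5 over Cy3, and 6 to 18 with 1 mouse left out. Ube2 calls (8) became 4 with Cy3 arrays, 3 with the Cy5 over Cy3 reading and 2 to 9 with 1 mouse left out, and the Ube2 median 0.092 with Cy5 arrays. Usp calls (2) became 4 with Cy5 arrays, 1 with probes averaged by gene (median 0.046), 3 with Cy3 arrays or without the 3 mice 5905, 5997 and 6065, and 0 to 4 with 1 mouse left out. In cord, calls stayed at 0 under all alternatives. The cord proteasome median was -0.038 in Cy5, -0.29 in Cy3, 0.12 with the Cy5 over Cy3 reading and -0.15 to -0.11 with 1 RNA left out. The Ube2 median was -0.087, -0.21, 0.070 and -0.21 to -0.12 under the same changes, and the Usp median -0.0086 with array weights.

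For testis minus cord, a spread of its own for each tissue gave 0 proteasome, 0 Ube2 and 0 Usp calls (0.123% of all probes). Array weights also gave 0 (0.953% of all probes), and so did the replicate block (0.0% of all probes). No other fit was paired. The proteasome calls (16) were 3 with Cy5 arrays, 2 with the Cy5 over Cy3 reading and 10 to 17 with 1 RNA left out. Ube2 calls (11) were 2, 2 and 6 to 11, and 5 with probes averaged. Usp calls (6) were 3 with Cy5 arrays, 9 with Cy3 arrays, 3 with probes averaged, 3 without the 3 mice and 3 to 8 with 1 RNA left out. The proteasome median of 0.28 was 0.19 in Cy5, 0.40 in Cy3, -0.12 with the Cy5 over Cy3 reading, 0.26 with weights, 0.36 with the block, 0.32 without the 3 mice and 0.24 to 0.32 with 1 RNA left out. The Ube2 median was 0.21 in Cy3, -0.0040 with that reading and 0.15 to 0.19 with 1 RNA left out, and the Usp median 0.021 with weights, -0.078 without the 3 mice and -0.075 to 0.00093 with 1 RNA left out.

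Reversed in testis with the Cy5 over Cy3 reading were Psmc5 (-0.19), Psmb2 (-0.018), Ube2b (-0.089 and -0.022), Ube2z (-0.046), Ube2c (0.23), Ube2o (-0.030), Ube2l3 (0.12) and Psmd14 (-0.041). With 1 dye, Psmc5 (-0.0022) and Ube2c (0.084) turned in Cy5, and Psmb6 (-0.0088) and Usp36 (0.063) in Cy3. Of the tissue difference, that reading turned Psmc5 (-0.45), Psmd9 (0.95), Ube2ql1 (-0.0057), Ube2b (-0.11), Ube2h (-0.11), Ube2z (0.014), Ube2k (0.13), Ube2u (0.65), Usp30 (-0.38), Usp15 (0.075), Ube2l3 (-0.22 and -0.23), Psmb6 (-0.064), Psmb7 (-0.15) and Psmd4 (-0.19). Cy5 arrays turned Psme2 (0.78), Psmd9 (0.92) and Ube2l3 (-0.0066), Cy3 arrays Ube2l3 (0.60), and averaging probes Ube2z (0.40) and Ube2l3 (-0.15). The cause was not tested. Precision is limited by the 3 cord RNAs and by having ratios without intensities.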
